A study of Mus musculus with 4 samples.

Results

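The cells described here are Cx3cr1 and Ms4a4c macrophages of the mouse prostate: 2184 of the 31165 cells that passed quality limits in 4 single-cell RNA libraries. A cell was a member when it carried the complement genes C1qa, C1qb and C1qc at 10 or more unique molecular identifiers (UMIs, one per captured RNA molecule) per 10000, no UMI of the T-cell gene Cd3e, fewer than 3 UMIs of the cell-cycle genes Mki67 and Top2a, and fewer than 5 of the resident-macrophage genes Folr2, Cd163, Cd209f and Clec10a. It also carried 3 or more UMIs of Cx3cr1 plus Ms4a4c, and at least as many of these as of Gpnmb plus Spp1. The members were thus chosen by the measured UMIs of these 14 genes, whose levels are given as a description, without any test.

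The 4 libraries came from mice in which a gene deletion was restricted to the prostate, as the PC mark of the genotype label is read here; the label does not spell the mark out. Trp53, the gene of the tumour suppressor p53, was deleted in one pair of libraries and intact in the other, and one library of each pair carried the label ADT, read here as androgen deprivation therapy. The Trp53-deleted ADT mice were 5.5 months old, the Trp53-deleted mice 3.5 months, the Trp53-intact ADT mice 5.5 months and the Trp53-intact mice 4 months. Whole prostates were digested with collagenase type II and TrypLE, and 3' libraries were made on the 10x Chromium platform. Since a group is 1 library, an effect of ADT cannot be told apart from one of age or of the library itself, and the same holds for genotype. How many mice went into a library is not stated in the labels. No test between groups was possible. The 95% intervals below are exact intervals that cover counting error only, and a cell is not a replicate of its group.

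Macrophages clear dead cells and debris, present antigen to T cells and secrete chemokines and cytokines, and in tumours they come both from tissue-resident populations and from blood monocytes. Cx3cr1 encodes the receptor for fractalkine (Cx3cl1) and is carried by patrolling monocytes, microglia and macrophages of many tissues. Ms4a4c, Ms4a6b, Ms4a6c and Ms4a6d belong to the family of membrane-spanning 4A proteins, which includes the B-cell antigen Cd20, and lie close together on chromosome 19. Trem2 encodes a lipid-sensing receptor of macrophages and microglia.

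In the GENCODE annotation of the mm10 assembly, Cx3cr1 is a protein-coding gene on the minus strand at chr9:119901616-120069879. Ms4a4c lies on the plus strand at chr19:11404770-11427246, Ms4a6c at chr19:11469366-11482192 and Ms4a6b at chr19:11516512-11531256, also on the plus strand. Ms4a6d lies on the minus strand at chr19:11586604-11604849. Trem2 lies on the plus strand at chr17:48346401-48354147. The 250 bases before the RefSeq transcription start (GRCm38.p6) are shown here for both gate genes and for Ms4a6c and Ms4a6b. Members of the Trp53-deleted ADT library held more Ms4a6c and Ms4a6b than members of the other libraries. The share of cells with Ms4a6c was also highest there in the resident and Gpnmb macrophages described below. Capitals mark a match to GAGGAA, the core of the PU.1 motif, or to GAAANNGAA, the core of an interferon-stimulated element, searched on both strands.
Cx3cr1: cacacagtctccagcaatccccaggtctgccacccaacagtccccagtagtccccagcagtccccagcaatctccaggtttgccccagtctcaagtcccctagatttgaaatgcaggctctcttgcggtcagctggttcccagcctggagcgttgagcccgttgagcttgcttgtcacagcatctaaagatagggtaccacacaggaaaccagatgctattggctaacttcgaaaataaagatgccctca
Ms4a4c: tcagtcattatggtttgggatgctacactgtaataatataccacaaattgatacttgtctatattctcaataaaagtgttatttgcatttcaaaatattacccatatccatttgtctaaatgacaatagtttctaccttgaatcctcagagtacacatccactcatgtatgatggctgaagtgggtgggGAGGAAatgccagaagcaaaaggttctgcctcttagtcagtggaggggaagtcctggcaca
Ms4a6c: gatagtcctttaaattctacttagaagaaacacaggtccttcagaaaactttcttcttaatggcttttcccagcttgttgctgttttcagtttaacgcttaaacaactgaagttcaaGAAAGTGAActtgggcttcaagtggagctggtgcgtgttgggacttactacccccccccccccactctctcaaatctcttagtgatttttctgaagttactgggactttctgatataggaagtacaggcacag
Ms4a6b: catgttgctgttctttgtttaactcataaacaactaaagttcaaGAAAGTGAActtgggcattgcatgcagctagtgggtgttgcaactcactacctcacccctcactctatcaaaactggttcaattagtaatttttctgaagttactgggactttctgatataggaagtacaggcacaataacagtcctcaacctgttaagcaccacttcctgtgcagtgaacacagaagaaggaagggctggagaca
The Cx3cr1 stretch (chr9:120068297-120068546, minus strand) held neither motif. The Ms4a4c stretch (chr19:11407411-11407660, plus strand) held GAGGAA from 61 to 56 bases before the start. The Ms4a6c stretch (chr19:11469118-11469367, plus strand) held GAAANNGAA from 133 to 125 bases before it, and the Ms4a6b stretch (chr19:11518309-11518558, plus strand) from 206 to 198. The Ms4a6c and Ms4a6b stretches shared a run of 48 identical bases. Of all 32851 promoters of the same length, 7639 (23.3%) held GAGGAA and 2342 (7.13%) held GAAANNGAA. A match describes letters only, and reads of near-identical family members such as Ms4a6b, Ms4a6c and Ms4a6d may be split between them by the authors' counting.

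The deposited matrix held 10595 cell barcodes in Trp53-deleted ADT, 7806 in Trp53-deleted, 8524 in Trp53-intact ADT and 9401 in Trp53-intact, with 58088678 to 148030357 UMIs per library. After cells under 500 UMIs, under 200 genes or over 20% mitochondrial UMIs were left out, the kept cells numbered 9626 in Trp53-deleted ADT, 5694 in Trp53-deleted, 7751 in Trp53-intact ADT and 8094 in Trp53-intact. The Trp53-deleted library lost 25.7% of its barcodes to the mitochondrial limit, against 8.39% to 13.9% in the other libraries. Barcode sequences found in more than 1 library numbered 128 of 36198 distinct ones, and 11 of the 2184 member barcodes were also found in another library, none of them as a member there. Members were deep cells, with a median of 11335 UMIs in Trp53-deleted ADT, 9711 in Trp53-deleted, 14826 in Trp53-intact ADT and 10808 in Trp53-intact, against a median of 4081 to 5562 over all kept cells. Their summed UMIs were 16838107 in Trp53-deleted ADT, 1558436 in Trp53-deleted, 2090021 in Trp53-intact ADT and 5490431 in Trp53-intact, so that the Trp53-deleted and Trp53-intact ADT values below rest on the fewest molecules.

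The cells carried the macrophage markers in full: 13 of 13 macrophage-defining genes were detected in the members of every library, with a summed level of 21120 to 25330 CPM (UMIs of a gene scaled to the summed UMIs of its group), against 536.8 to 1236 CPM in the T and B cells of the same libraries. T and NK markers summed to 17.04 to 29.66 CPM in members, against 656 to 2018 CPM in the T and B cells. Of 8 neutrophil markers, 5 or 6 were detected, with a summed level of 128.2 to 293.2 CPM. At least 1 of them was seen in 16.1% of members in Trp53-deleted ADT, 33.8% in Trp53-deleted, 68.1% in Trp53-intact ADT and 32.9% in Trp53-intact, while Camp and Ngp were at 0 in all 4 groups and Ly6g in 3 of 4. RNA of other cells was nevertheless present and unequal. The 7 fibroblast markers, all detected, summed to 1004 CPM in Trp53-deleted ADT, 1068 in Trp53-deleted, 350.2 in Trp53-intact ADT and 622.2 in Trp53-intact, and 79.6% of Trp53-deleted ADT members carried 3 or more of them, against 5.8% to 26.2% in the other groups. The 8 B and plasma cell markers, all detected, summed to 7609 CPM in the Trp53-deleted members and to 165.2 to 695.2 CPM in the other groups. The 4 erythroid markers summed to 526.5 CPM in Trp53-deleted ADT and to 9.625 to 34.24 CPM elsewhere, with Hbb-bt at 0 in Trp53-deleted. Their part in the results below was not tested. Values with the T and B level subtracted are given in places as a description, as this level also holds genes that T and B cells make themselves.

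By the rule, members made up a far larger share of the Trp53-deleted ADT library than of the other libraries. They numbered 1445 in Trp53-deleted ADT, 154 in Trp53-deleted, 138 in Trp53-intact ADT and 447 in Trp53-intact. As a share of kept cells this was 15% (95% interval 14.3 to 15.7) in Trp53-deleted ADT, 2.7% (2.3 to 3.16) in Trp53-deleted, 1.78% (1.5 to 2.1) in Trp53-intact ADT and 5.52% (5.03 to 6.04) in Trp53-intact. The highest library was 1 of the ADT libraries and the lowest was the other one. Leaving out members that held UMIs of other cell types took away most of the Trp53-deleted ADT members. It left 309 in Trp53-deleted ADT, 119 in Trp53-deleted, 101 in Trp53-intact ADT and 273 in Trp53-intact. The kept cells of these libraries numbered 9626, 5694, 7751 and 8094 in the same order. Per kept cell, Trp53-deleted ADT was then no longer the highest library and lay just below Trp53-intact. No intervals were made for shares in that setting.

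Set against its own genotype, ADT went with more of these cells where Trp53 was deleted, by 12.31 percentage points (11.47 to 13.14), and with fewer where Trp53 was intact, by -3.74 points (-4.33 to -3.16). Set against the intact genotype, the deleted one held 13.23 points more (12.45 to 14.01) under ADT and -2.82 points (-3.48 to -2.15) without it. A share of all cells moves with every other cell type recovered. Within the C1q gate, which holds all macrophages with the C1q genes and no Cd3e, members made up 38.2% (36.6 to 39.7) of 3787 cells in Trp53-deleted ADT, 15.6% (13.4 to 18) of 987 in Trp53-deleted, 14.9% (12.6 to 17.3) of 928 in Trp53-intact ADT and 20.3% (18.6 to 22) of 2203 in Trp53-intact. The Trp53-deleted ADT library was again the highest, and the intervals of the Trp53-deleted and Trp53-intact ADT libraries overlapped. The gate counts UMIs, so it also selects deep cells: after every cell was thinned to 2000 UMIs the differences kept their signs and shrank to 7.30 and -1.54 points for ADT and to 8.09 and -0.75 points for genotype.

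**Figure D1:**
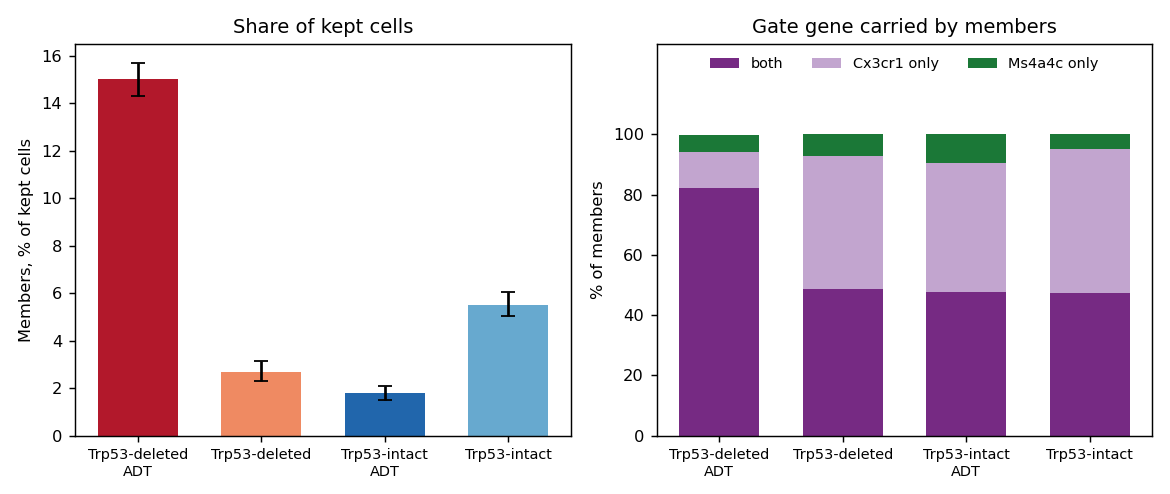
Left, members as a percentage of kept cells in each library, with exact 95% intervals that cover counting error. Right, members of each library split by the gate gene they carried, as a percentage of members. Trp53-deleted ADT stands at 15% of kept cells, and 82.2% of its members carried both gate genes, against 47.4% to 48.7% in the other libraries.

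The gate cut through a range of levels. Cells with exactly 3 UMIs of Cx3cr1 plus Ms4a4c, just inside, numbered 113 in Trp53-deleted ADT, 21 in Trp53-deleted, 18 in Trp53-intact ADT and 43 in Trp53-intact, and cells with 2 UMIs that met every other condition, just outside, numbered 131 in Trp53-deleted ADT, 23 in Trp53-deleted, 19 in Trp53-intact ADT and 62 in Trp53-intact. Ms4a6c stood at 319.2 to 953 CPM just inside and at 403.6 to 806.3 CPM just outside, and Trem2 at 249.9 to 426 CPM inside and at 138.7 to 407.5 CPM outside. The ranges of both genes overlapped across the edge.

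The label names Cx3cr1 and Ms4a4c together, and only in the Trp53-deleted ADT library did most members carry both. Cx3cr1 stood at 524 CPM in Trp53-deleted ADT, 778 in Trp53-deleted, 521 in Trp53-intact ADT and 676 in Trp53-intact. Ms4a4c stood at 550 CPM in Trp53-deleted ADT, 236 in Trp53-deleted, 261 in Trp53-intact ADT and 148 in Trp53-intact. Both genes were used by the rule, so these levels only describe the chosen cells. Cells with both genes made up 82.2% (80.1 to 84.2) of members in Trp53-deleted ADT, 48.7% in Trp53-deleted, 47.8% in Trp53-intact ADT and 47.4% in Trp53-intact. Cells with Ms4a4c and no Cx3cr1 UMI were 5.95% of members (86 cells) in Trp53-deleted ADT, 7.14% (11) in Trp53-deleted, 9.42% (13) in Trp53-intact ADT and 4.92% (22) in Trp53-intact. Cells with Cx3cr1 and no Ms4a4c UMI were 11.8% (171) in Trp53-deleted ADT, 44.2% (68) in Trp53-deleted, 42.8% (59) in Trp53-intact ADT and 47.7% (213) in Trp53-intact.

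Ms4a6c, which the rule did not use, was seen in nearly every member. It stood at 1270 CPM in Trp53-deleted ADT, 658 in Trp53-deleted, 729 in Trp53-intact ADT and 591 in Trp53-intact, so that only the first library stood clear of the others. The log2 ratio with ADT, taken after 5 CPM were added to both levels, was 0.95 in the Trp53-deleted pair (95% interval of the ratio without the added 5 CPM, 0.861 to 1.04) and 0.30 in the Trp53-intact pair (0.213 to 0.39). The median cell held 12.4 UMIs of Ms4a6c per 10000 in Trp53-deleted ADT, 5.55 in Trp53-deleted, 6.81 in Trp53-intact ADT and 5.36 in Trp53-intact. At a fixed depth of 2000 UMIs per cell, 88.5% of Trp53-deleted ADT members and 66.7% to 67.9% of members elsewhere held a UMI of Ms4a6c. Among the T and B cells, whose median depth before thinning was 4649 to 6336.5 UMIs, it was 1.92% to 8.75%. Without thinning the member shares were 99.1% and 92.2% to 96.4%. Ms4a6c was not particular to members. At the same depth, resident macrophages (defined below) held it in 87.1% of cells in Trp53-deleted ADT, 56% in Trp53-deleted, 73.9% in Trp53-intact ADT and 72.7% in Trp53-intact. Gpnmb macrophages (also below) held it in 76% of cells in Trp53-deleted ADT and 38.7% to 43.9% elsewhere, so Trp53-deleted ADT was highest there too.

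The neighbouring family members followed the same order only in part. Ms4a6b stood at 705 CPM in Trp53-deleted ADT, 310 in Trp53-deleted, 276 in Trp53-intact ADT and 300 in Trp53-intact, with 1 library high and the others alike. Ms4a6d stood at 465 CPM in Trp53-deleted ADT, 191 in Trp53-deleted, 316 in Trp53-intact ADT and 235 in Trp53-intact. Ms4a7, another macrophage member of the family, showed no such high library, at 778 CPM in Trp53-deleted ADT, 873 in Trp53-deleted, 1160 in Trp53-intact ADT and 1090 in Trp53-intact, and Ms4a14 was lowest in Trp53-deleted ADT, at 16.2 CPM against 31 to 41.7 CPM.

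Trem2 was present at a similar level in all 4 libraries: 473 CPM in Trp53-deleted ADT, 359 in Trp53-deleted, 430 in Trp53-intact ADT and 397 in Trp53-intact. Its log2 ratio with ADT was 0.39 (0.271 to 0.521) in the Trp53-deleted pair and 0.11 (0.00244 to 0.229) in the Trp53-intact pair. At 2000 UMIs per cell it was seen in 56.2% of members in Trp53-deleted ADT, 42.2% in Trp53-deleted, 50% in Trp53-intact ADT and 45.4% in Trp53-intact, and in 0.46% to 1.89% of the T and B cells. The Gpnmb macrophages held it more often, at 61.5% in Trp53-deleted ADT, 69.6% in Trp53-deleted, 71% in Trp53-intact ADT and 63.4% in Trp53-intact. Resident macrophages held it in 64.7% of cells in Trp53-deleted ADT and in 25.4% to 29% elsewhere.

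Tmem119, a membrane protein often used to mark microglia, stood at 122 CPM in Trp53-deleted ADT members, 91.1 in Trp53-deleted, 156 in Trp53-intact ADT and 141 in Trp53-intact, against 59.2 CPM in the Trp53-deleted ADT resident macrophages and 2.3 to 4.8 CPM in those of the other libraries. Resident macrophages are here the C1q-gate cells with 5 or more UMIs of Folr2, Cd163, Cd209f and Clec10a. Tmem119 was higher in members in every library, with the smallest gap in Trp53-deleted ADT. Of 19 microglia-type genes set against resident macrophages, 2 (Tmem119 and Tgfbr1) were at least 1.5-fold higher in all 4 libraries and 1 (Fcrls) lower, beside 0.954% and 2.74% of all genes. The list median was -0.11 in Trp53-deleted ADT, 0.20 in Trp53-deleted, 0.58 in Trp53-intact ADT and 0.10 in Trp53-intact. The Gpnmb macrophages described below held 112 CPM of Tmem119 in Trp53-deleted ADT, 83.4 in Trp53-deleted, 92.4 in Trp53-intact ADT and 91.9 in Trp53-intact. For 19 microglia-type genes, the median log2 ratio of members over these cells was 0.36 in Trp53-deleted ADT, 0.65 in Trp53-deleted, 0.39 in Trp53-intact ADT and 0.43 in Trp53-intact. Of the 19, 0 were 1.5-fold higher in all 4 libraries, beside 0.658% of all genes, so this count does not set the list apart. P2ry12, the microglial ADP receptor, stood at 24.9 to 48.1 CPM. Csf1r, the receptor that macrophages need to survive, stood at 670 to 952 CPM.

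**Figure D2:**
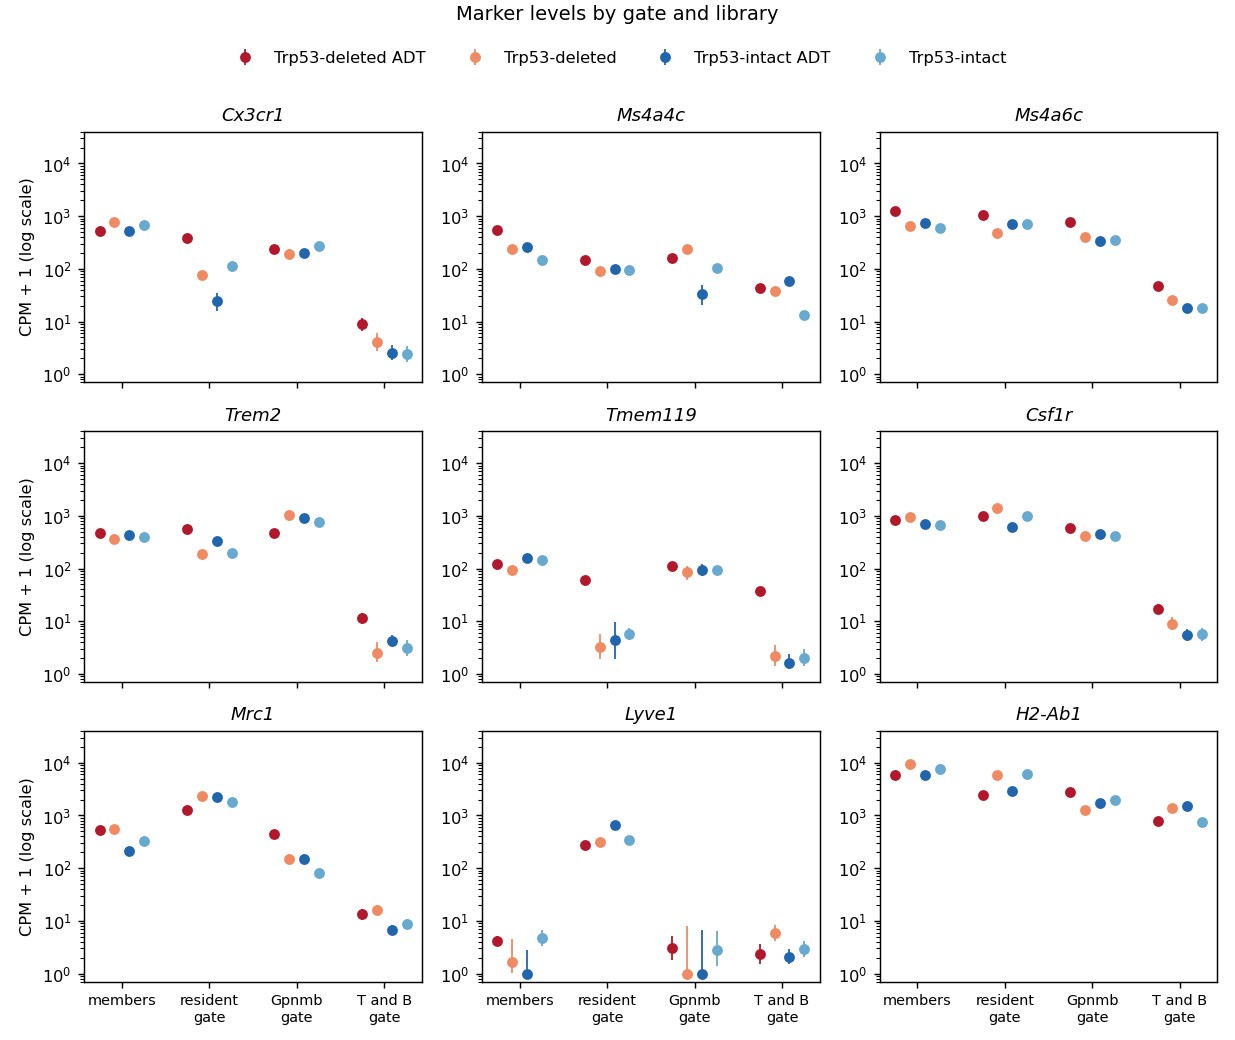
Level of 9 genes on a log axis (CPM + 1) in members, in resident-gate and Gpnmb-gate macrophages and in T and B cells, one point per library with its Poisson 95% interval. Ms4a6c and Trem2 in members lie above their T and B level in every library, and Lyve1 lies between 0 and 3.82 CPM in members, against 273 to 646 CPM in the resident gate.

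Trp53 itself was read in the members of both genotypes, at 50.7 CPM (Trp53-deleted ADT), 57.1 (Trp53-deleted), 45.9 (Trp53-intact ADT) and 43.7 (Trp53-intact). Its log2 ratio, Trp53-deleted over Trp53-intact, was 0.13 (-0.163 to 0.463) under ADT and 0.35 (0.0181 to 0.742) without ADT. The gene lies at chr11:69580359-69591873 on the plus strand. A deletion restricted to the prostate would leave macrophages untouched, and a 3' read need not fall in the deleted part, so this level does not check the label. Of 13 p53 pathway genes measured in the Trp53-deleted pair, 2 were at least 1.5-fold higher under ADT and 1 lower, with a median of 0.01. Of 11 in the Trp53-intact pair, 2 were higher and 2 lower, with a median of 0.04. Of all genes tested, 8.13% were higher and 13.6% lower in the first pair, and 8.04% and 6.36% in the second. Cdkn1a (p21) was higher in both: 470 CPM in Trp53-deleted ADT against 233 in Trp53-deleted, and 603 CPM in Trp53-intact ADT against 263 in Trp53-intact. Bbc3 of the same list was lower in both. Between genotypes without ADT, 0 of 11 p53 genes differed by 1.5-fold, beside 19.2% higher and 6.81% lower of all genes tested. Cdkn2a stood at 64.4 CPM in Trp53-deleted ADT members and at 2.39 to 6.42 CPM elsewhere, and at 647 CPM in the T and B cells of the Trp53-deleted ADT library against 6.23 to 24.2 CPM in those of the others.

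Which of the 2 gate genes a member carried went with a second division inside the group, seen in all 4 libraries. Members with Ms4a4c only were rich in genes of blood monocytes and of the interferon response; members with Cx3cr1 only were rich in microglia-type genes. The cells were split by measured genes, so this is a description. Of 8590 genes tested, 48 (0.559%) were at least 2-fold higher with Ms4a4c only in all 4 libraries and 57 (0.664%) at least 2-fold lower. At 1.5-fold the shares were 1.36% higher and 2.49% lower. The Ms4a4c-only side rests on 11 to 86 cells per library.

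Ly6c2, the Ly6C antigen of classical monocytes, had the widest gap. It stood at 582 CPM in Trp53-deleted ADT, 528 in Trp53-deleted, 278 in Trp53-intact ADT and 388 in Trp53-intact in Ms4a4c-only members, against 0 to 23.3 CPM in Cx3cr1-only members, with no UMI in Trp53-deleted and the highest value in Trp53-deleted ADT. Plac8, another monocyte gene, stood at 524 to 1300 CPM in Ms4a4c-only against 22.7 to 68.9 CPM in Cx3cr1-only members. Of 13 classical monocyte genes measured, 9 were at least 1.5-fold higher with Ms4a4c only in every library, beside 1.36% of all genes. Reads of Ly6c2 may be shared with its close copies in the Ly6 cluster.

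Interferon genes went the same way. With Ms4a4c only, 27 of 47 were at least 1.5-fold higher in all 4 libraries, beside 1.36% of all genes, and 0 were lower. Irf7, the transcription factor that amplifies the type I interferon response, stood at 260 to 585 CPM in Ms4a4c-only members, lowest in Trp53-intact, against 46.8 to 103 CPM in Cx3cr1-only members, highest in Trp53-deleted. Ifit3, an interferon-induced RNA-sensing partner, stood at 160 to 693 CPM in Ms4a4c-only against 18.7 to 52.9 CPM in Cx3cr1-only members, and Mnda at 147 to 488 CPM in Ms4a4c-only against 35.1 to 70.9 CPM in Cx3cr1-only members. No library overlapped between the sides for these genes.

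The other direction held Fcrls, an Fc receptor-like gene known from microglia, at 9.77 to 78.3 CPM in Ms4a4c-only members, lowest in Trp53-deleted, against 183 to 486 CPM in Cx3cr1-only members, highest in Trp53-deleted ADT. Of 18 microglia-type genes, 12 were at least 1.5-fold lower with Ms4a4c only in every library, beside 2.49% of all genes, and 0 were higher. Stab1, a scavenger receptor, stood at 29.3 to 82.4 CPM in Ms4a4c-only against 253 to 591 CPM in Cx3cr1-only members. Gpr34, a lysophosphatidylserine receptor, stood at 9.12 to 33.5 CPM in Ms4a4c-only against 82.9 to 123 CPM in Cx3cr1-only members, and Pmepa1, a TGF-beta target, at 81.4 to 219 CPM in Ms4a4c-only against 503 to 754 CPM in Cx3cr1-only members. Cxcl14 stood at 0 to 34.4 CPM in Ms4a4c-only against 61.4 to 169 CPM in Cx3cr1-only members, and 4 of 7 fibroblast markers were also at least 1.5-fold lower with Ms4a4c only; the part of fibroblast RNA in the Cxcl14 value was not tested.

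**Figure D3:**
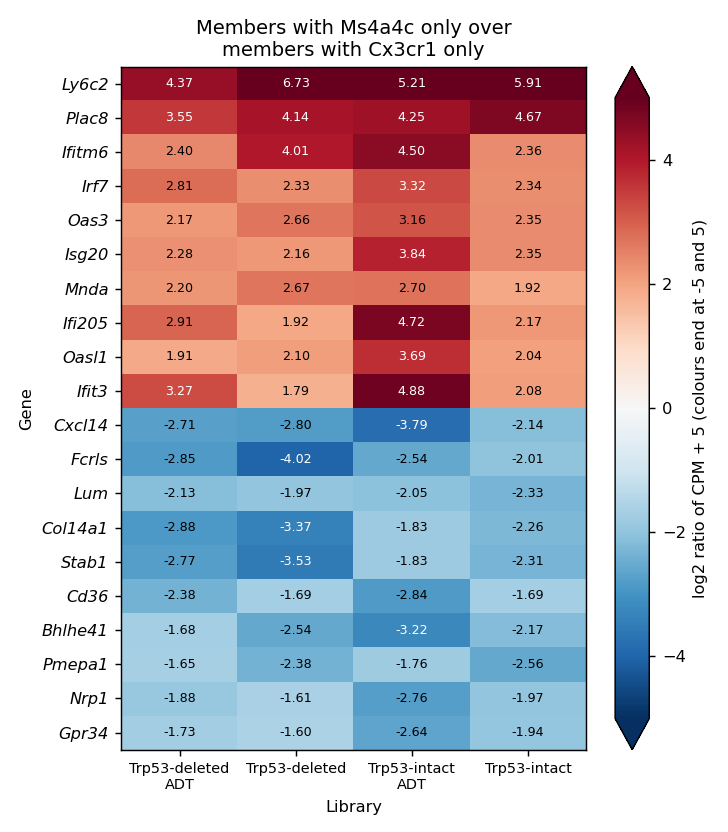
Colours give the log2 ratio of CPM + 5, Ms4a4c-only over Cx3cr1-only members, for 20 genes (rows) in the 4 libraries (columns), and the colour scale ends at -5 and 5. The 10 upper genes are higher and the 10 lower genes lower in all 4 libraries, with Plac8 at 3.55 to 4.67; the Ly6c2 ratio of Trp53-deleted is set by the added 5 CPM, as its Cx3cr1-only members held no UMI.

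Ms4a6c and Trem2 ran in opposite directions along this division. Ms4a6c stood at 1350 CPM in Trp53-deleted ADT, 967 in Trp53-deleted, 1320 in Trp53-intact ADT and 855 in Trp53-intact in Ms4a4c-only members, and at 1000 CPM in Trp53-deleted ADT, 453 in Trp53-deleted, 501 in Trp53-intact ADT and 415 in Trp53-intact in Cx3cr1-only members. Trem2 stood at 48.8 to 283 CPM in Ms4a4c-only members, lowest in Trp53-deleted and highest in Trp53-deleted ADT, against 397 to 577 CPM in Cx3cr1-only members, lowest and highest in the same libraries. Cells with both gate genes lay between or beside them, with Ms4a6c at 736 to 1300 CPM. The 4 libraries differ in the mix of these classes.

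Beside the resident macrophages of the same library, members had less of the resident genes: 16 of 16 resident and alternative-activation genes outside the rule were at least 1.5-fold lower in all 4 libraries, beside 2.74% of 12157 genes tested. Some of them were still well present in members, such as Mrc1 at 215 to 551 CPM and Pf4 at 155 to 413 CPM. Lyve1, the hyaluronan receptor of perivascular macrophages, stood at 3.15 CPM in Trp53-deleted ADT, 0.642 in Trp53-deleted, 0 in Trp53-intact ADT and 3.82 in Trp53-intact, against 273 to 646 CPM in resident cells. Ccl8, a chemokine of resident macrophages, stood at 191 to 528 CPM in members against 4010 to 9850 CPM in resident cells. In all, 106 genes (0.872%) were at least 2-fold lower in every library, Fcna, Ednrb, Ccl24 and Npl among the lowest. As the gate used resident genes, this gap is partly what the rule selected.

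The 23 genes (0.189%) at least 2-fold higher than in resident cells in every library were led by Klra2, a killer-cell lectin-like receptor, at 39.3 to 130 CPM in members against 3.83 to 34.8 CPM in resident cells; on both sides Trp53-intact was lowest and Trp53-deleted ADT highest. F11r, the junctional adhesion molecule A, stood at 113 to 137 CPM in members against 7.19 to 47.4 CPM in resident cells. Il1b, the cytokine interleukin 1 beta, stood at 1840 CPM in Trp53-deleted ADT, 989 in Trp53-deleted, 4200 in Trp53-intact ADT and 1900 in Trp53-intact in members, against 255 to 746 CPM in resident cells. Ccl5, a chemokine that T cells also make, stood at 149 to 380 CPM in members against 7.7 to 93.6 CPM in resident cells, with 475 to 1050 CPM in the T and B cells.

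The Gpnmb macrophages were C1q-gate cells within the same resident-gene and cell-cycle limits as members. They held 3 or more UMIs of Gpnmb plus Spp1, and more of these than of Cx3cr1 plus Ms4a4c. They were few: 247 in Trp53-deleted ADT, 27 in Trp53-deleted, 51 in Trp53-intact ADT and 87 in Trp53-intact. In Trp53-intact ADT their median depth was 4381 UMIs, against 14826 in members. Beside them, members had more mRNA of MHC class II genes and less of lipid-handling genes. Of 16 MHC class I genes, 0 were at least 1.5-fold higher in every library. Of 10 MHC class II genes, 7 were at least 1.5-fold higher in every library, beside 0.658% of 11707 genes tested. Cd74, the invariant chain, stood at 13400 CPM in Trp53-deleted ADT, 23300 in Trp53-deleted, 12000 in Trp53-intact ADT and 15300 in Trp53-intact, against 3860 to 6480 CPM in Gpnmb macrophages. Ciita, the class II transactivator, stood at 52.2 to 169 CPM in members against 10.9 to 20.7 CPM in Gpnmb macrophages. At 2-fold, 9 genes (0.0769%) were higher and 34 (0.29%) lower.

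Of 21 lipid-associated genes, 11 were at least 1.5-fold lower than in the Gpnmb macrophages in every library, beside 0.94% of all genes. As both gates used Gpnmb and Spp1, which belong to the same list, this gap is partly what the rule selected. Fabp5, a fatty-acid carrier, stood at 48.8 to 201 CPM in members against 418 CPM in the Trp53-deleted ADT Gpnmb macrophages and 2740 to 3400 CPM in those of the other libraries. Arg1, arginase, stood at 3.85 to 44.5 CPM in members against 49.6 to 459 CPM in Gpnmb macrophages, and Ctsk, the cathepsin of osteoclasts, at 0.182 to 18.2 CPM in members against 36 to 146 CPM in Gpnmb macrophages. Glycolysis and hypoxia genes were lower in 8 of 26, among them Aldoa, Pgk1 and Pkm.

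The comparison of ADT with no ADT where Trp53 was deleted rested on 1445 and 154 members. Members under ADT had more mRNA of immediate-early transcription factors, of some chemokines and of the Ms4a6 genes, and less of MHC class II, complement and several lipid genes. Of 10414 genes tested, 243 (2.33%) were at least 2-fold higher and 328 (3.15%) at least 2-fold lower, together 5.48%. With TMM scaling, which moved the median log2 ratio of all genes from -0.09 to 0.01, the counts were 302 higher and 235 lower.

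Nr4a2, an orphan nuclear receptor, led the higher genes at 352 CPM in Trp53-deleted ADT against 43 CPM in Trp53-deleted, a log2 ratio of 2.89. A UMI of it was present in 939 of 1445 members under ADT and in 18 of 154 without, and without the 3 cells richest in it per library the log2 ratio was 3.76. Klf4, a zinc-finger transcription factor, stood at 746 CPM with ADT against 121 CPM without (log2 ratio 2.57) and Klf2 at 585 CPM with ADT against 117 CPM without (2.27). Thbs1, the matrix protein thrombospondin 1, stood at 490 CPM with ADT against 81.5 CPM without (2.52), with 75.6% of the Trp53-deleted UMIs in 3 cells. Plaur, the urokinase receptor, stood at 206 CPM with ADT against 46.8 CPM without and Tsc22d3, a glucocorticoid-induced gene, at 228 CPM with ADT against 55.2 CPM without. Fkbp5, another gene induced by glucocorticoid and androgen receptors, stood at 111 CPM with ADT against 30.8 CPM without, whereas Txnip, which the same list holds, stood at 149 CPM with ADT against 429 CPM without. In the T and B cells, Nr4a2, Klf4, Klf2 and Tsc22d3 were also higher with ADT, while Thbs1 and Plaur were lower. Klf4 stood there at 212 CPM with ADT against 137 CPM without. Nr4a3, Ier3, Cwc25, Slc25a33 and AY036118 completed the 12 highest with Cxcl2; AY036118 had a log2 ratio of 1.81, which turned to -0.39 once the T and B level was subtracted.

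Of 28 genes of the dissociation list, which joins AP-1 and heat-shock genes known to move during tissue digestion, 13 were at least 1.5-fold higher under ADT and 2 lower, beside 8.13% and 13.6% of all genes, with a list median of 0.56. With the T and B level subtracted, 12 were higher, 5 lower and the median 0.03. Fos stood at 2120 CPM in Trp53-deleted ADT against 777 CPM in Trp53-deleted and Dusp1 at 1270 CPM with ADT against 538 CPM without. Hspa1a went the other way, at 123 CPM with ADT against 298 CPM without, and Hspa1b likewise, at 59.1 CPM with ADT against 356 CPM without; reads of this pair of near-identical genes cannot be told apart with certainty. Digestion cannot be told apart from treatment in these libraries.

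Among 19 chemokines measured, 9 were at least 1.5-fold higher under ADT and 5 lower, with a median of 0.56. With the T and B level subtracted 6 were higher and 6 lower, with a median of 0.00, and without members that held UMIs of other cell types 6 were higher and 4 lower of 17, with a median of 0.16. Cxcl2, which attracts neutrophils, stood at 3080 CPM with ADT against 892 CPM without (log2 ratio 1.78), and its relative Cxcl1 at 97.5 CPM with ADT against 6.42 CPM without. The monocyte attractants Ccl2 and Ccl7 stood at 734 CPM with ADT against 325 CPM without and at 590 CPM with ADT against 160 CPM without. Ccl3 and Ccl4, macrophage inflammatory chemokines, leaned the other way, at 335 CPM with ADT against 641 CPM without and at 772 CPM with ADT against 1010 CPM without. For Cxcl2, 3 cells held 53.5% of the UMIs of the Trp53-deleted members, and without the 3 richest cells per library the log2 ratio was 2.81.

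MHC class II genes were lower under ADT in this pair: 6 of 10 by at least 1.5-fold and 0 higher, with a list median of -0.68. Cd74 stood at 13400 CPM in Trp53-deleted ADT against 23300 CPM in Trp53-deleted, a log2 ratio of -0.80 (interval -0.813 to -0.781), and Ciita at 55.1 CPM with ADT against 169 CPM without, a log2 ratio of -1.54. H2-Aa stood at 5920 CPM with ADT against 9930 CPM without and H2-Ab1 at 5800 CPM with ADT against 9290 CPM without. The median member held 153 UMIs of Cd74 per 10000 under ADT and 226 without, so the gap did not rest on a few cells. B cells carry class II as well. The B and plasma markers summed to 165.2 CPM in Trp53-deleted ADT members and to 7609 CPM in Trp53-deleted members, and 6.23% of members with ADT and 28.6% without carried 3 or more of them. With the T and B level subtracted, 4 of 10 genes were lower, with a median of -0.33. That level holds the B cells' own class II, with Cd74 at 2290 CPM in Trp53-deleted ADT and 5570 CPM in Trp53-deleted. The subtraction thus takes more from the group without ADT and cannot tell stray B-cell RNA from the members' own.

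Complement genes were lower in 8 of 12 and higher in 0, with a median of -0.71. C3 stood at 87.1 CPM in Trp53-deleted ADT against 406 CPM in Trp53-deleted (log2 ratio -2.16) and Serping1, the C1 inhibitor, at 28 CPM with ADT against 136 CPM without. Fibroblasts also make these proteins. The summed fibroblast markers were 1004 CPM with ADT and 1068 CPM without, but single markers moved both ways. Of 7, Col1a1, Sparc and Col1a2 were at least 1.5-fold higher under ADT, and Dcn, Lum and Pdgfra lower. Serping1 in the T and B cells stood at 49.3 CPM with ADT against 104 CPM without. The part of other cells' RNA in the complement values was not tested. Of 19 checkpoint and costimulation genes 8 were lower and 0 higher, among them Sirpa, the receptor for Cd47, at 294 CPM with ADT against 615 CPM without and Slamf7 at 49.2 CPM with ADT against 163 CPM without.

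Several of the lowest genes came from few cells of the Trp53-deleted library, but Lpl and Itgax were seen more widely. Lpl, lipoprotein lipase, stood at 31.4 CPM under ADT against 351 CPM without (log2 ratio -3.29), and 89 of 154 Trp53-deleted members held a UMI. Itgax, the integrin CD11c, stood at 27 CPM with ADT against 194 CPM without (-2.64), with a UMI in 64 of 154. AA467197 stood at 13.1 CPM with ADT against 219 CPM without (-3.64), Il2ra, the interleukin 2 receptor alpha chain, at 1.37 CPM with ADT against 67.4 CPM without (-3.51) and Mmp12, macrophage elastase, at 3.8 CPM with ADT against 77 CPM without (-3.22), and these had UMIs in 33, 25 and 10 of the 154 cells. For Mmp12, 80% of the UMIs came from 3 cells and for H2-M2, 78.9%. Of 21 lipid genes, 9 were lower and 2 higher, Abcg1, a cholesterol exporter, at 54.9 CPM with ADT against 161 CPM without and Lipa, lysosomal acid lipase, at 95.6 CPM with ADT against 229 CPM without. Mgl2, the lectin CD301b, stood at 45.8 CPM with ADT against 195 CPM without.

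DNA replication genes leaned towards ADT, 12 of 24 at least 1.5-fold higher and 0 lower, with a median of 0.57, although cells with 3 or more UMIs of Mki67 plus Top2a had been left out. With the T and B level of each library subtracted, which sets to 0 any gene those cells carry at a higher level, 0 were higher and 5 lower. Interferon genes were nearly level, with 5 of 47 higher, 1 lower and a median of -0.02.

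Where Trp53 was intact, the comparison rested on 138 members under ADT and 447 without. Members under ADT had more mRNA of interferon genes, of Il1b and of Nlrp3, and less of resident-macrophage genes, and the class II list leaned lower. Of 8497 genes tested, 140 (1.65%) were at least 2-fold higher and 237 (2.79%) lower, together 4.44%; with TMM scaling the counts were 103 and 278. Of 20 chemokines 6 were at least 1.5-fold higher and 3 lower, but 1 and 7 of 18 in members with both gate genes. Of 24 cytokines and mediators 9 were higher and 4 lower, but 5 and 8 of 22 in members with both gate genes.

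Interferon genes were at least 1.5-fold higher in 21 of 47 and lower in 0, beside 8.04% and 6.36% of all genes, with a median of 0.56. Over the other settings the number higher ran from 15 to 27 wherever 40 or more of the genes were measured. Isg15, a ubiquitin-like modifier, stood at 160 CPM in Trp53-intact ADT against 59.7 CPM in Trp53-intact, a log2 ratio of 1.35 (interval 1.2 to 1.64). Rsad2, viperin, stood at 357 CPM with ADT against 180 CPM without, Cmpk2 at 51.2 CPM with ADT against 11.7 CPM without and Ifi205 at 62.7 CPM with ADT against 16.2 CPM without. The share of Ms4a4c-only cells, which were the richest in these genes, was 9.42% under ADT and 4.92% without; in cells with both gate genes 15 of 46 interferon genes were higher and 1 lower.

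Nlrp3, the sensor of an inflammasome that releases active interleukin 1 beta, stood at 380 CPM in Trp53-intact ADT against 89.2 CPM in Trp53-intact, a log2 ratio of 2.03 (interval 1.93 to 2.26), and 115 of 138 members under ADT held a UMI. Il1b stood at 4200 CPM with ADT against 1900 CPM without, a log2 ratio of 1.15, and at 2000 UMIs per cell was seen in 82.8% of members under ADT and 50.8% without, against 12.1% and 7.17% of the T and B cells. Its natural antagonist Il1rn stood at 325 CPM with ADT against 151 CPM without. Tgfbi, a secreted matrix protein induced by TGF-beta, stood at 862 CPM with ADT against 337 CPM without, with a UMI in 131 of 138 members.

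Several of the highest genes in this pair came from a handful of cells. Pla2g2d (36.8 CPM with ADT against 5.65 CPM without) and Ccl22 (59.3 CPM with ADT against 14.4 CPM without) were seen in 2 of 138 members under ADT, and without the 3 richest cells per library their log2 ratios were -0.63 and -1.05. Ly6i was seen in 8 members, with 92.8% of UMIs in 3 cells, Dnase1l3 in 14 with 84.4% and Bglap2 in 10 with 73.5%; Ly6i and Dnase1l3 had log2 ratios of 0.05 and 0.48 without those cells. Reads of Bglap2 and Tpm3-rs7 may be shared with close copies. Ifi206 (69.9 CPM with ADT against 15.1 CPM without) was seen in 34 members.

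Resident-type genes were at least 1.5-fold lower in 6 of 9 and higher in 0, with a median of -0.73. Cbr2, carbonyl reductase 2, stood at 22 CPM in Trp53-intact ADT against 189 CPM in Trp53-intact, Retnla at 3.83 CPM with ADT against 83.6 CPM without and Mrc1, the mannose receptor, at 215 CPM with ADT against 324 CPM without. Mgl2 stood at 44 CPM with ADT against 210 CPM without (log2 ratio -2.14), with a UMI in 170 of 447 Trp53-intact members. Hmox1, heme oxygenase, stood at 76.1 CPM with ADT against 253 CPM without (-1.67), the transcription factor Maf at 247 CPM with ADT against 522 CPM without (-1.06), Il10 at 20.6 CPM with ADT against 56.1 CPM without (-1.26) and the growth factor gene Gdf15 at 31.1 CPM with ADT against 117 CPM without (-1.75). Fcrls stood at 124 CPM with ADT against 311 CPM without and Apoc1 at 10 CPM with ADT against 62.7 CPM without, with 66.3% of the Trp53-intact UMIs of Apoc1 in 3 cells.

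The heat-shock genes Hspa1b and Hspa1a were far lower under ADT. Hspa1b stood at 14.8 CPM in Trp53-intact ADT against 1560 CPM in Trp53-intact and Hspa1a at 72.7 CPM with ADT against 1700 CPM without. The T and B cells differed likewise, with Hspa1b at 11.4 CPM with ADT against 700 CPM without and Hspa1a at 7.94 CPM against 627 CPM, so the gap was not particular to members. Fos and Fosb of the same list were higher, at 2480 CPM with ADT against 1560 CPM without and at 975 CPM with ADT against 347 CPM without, so that 6 of 28 genes of the dissociation list were higher, 10 lower and its median -0.08. MHC class II genes were lower by 1.5-fold in 3 of 10 and higher in 0, with H2-Eb1 at 5710 CPM with ADT against 8640 CPM without. Complement genes were mixed, 1 higher and 3 lower of 11: Cfb, factor B, stood at 45.5 CPM with ADT against 13.8 CPM without and Serping1 at 15.3 CPM with ADT against 38.2 CPM without.

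The 2 ADT comparisons share no library, and across 8414 genes tested in both their log2 ratios were nearly unrelated, with a Pearson r of 0.0434 and a Spearman rho of 0.0124; genes share cells and depth within a library and are not independent, so this is a description. At 2-fold, 29 genes were higher in both. This is 17.3% of the 168 higher in the Trp53-deleted pair, beside 1.65% of all genes tested in the Trp53-intact pair. It is 21.3% of the 136 higher in the Trp53-intact pair, beside 2.33% of all genes tested in the Trp53-deleted pair. Lower in both were 20 genes, 6.99% of 286 and 10.4% of 193, beside 2.79% and 3.15% of all genes tested in the other pair. Of the 168 genes higher in the Trp53-deleted pair, 37 were lower in the Trp53-intact pair, beside 2.79% of all genes tested there. These outnumbered the 29 higher in both. Of the 286 genes lower in the Trp53-deleted pair, 9 were higher in the Trp53-intact pair, beside 1.65% of all genes tested there.

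Nr4a2, Nr4a3, Klf4, Plaur, Ets2, Fosb, Il1rn and Clec4n were among the 29. In the T and B cells, Nr4a2, Nr4a3, Klf4 and Fosb were also higher with ADT in both pairs, so this direction was not particular to members. Nr4a2 stood there at 198 CPM in Trp53-deleted ADT against 71.1 CPM in Trp53-deleted, and at 109 CPM in Trp53-intact ADT against 51.9 CPM in Trp53-intact. Plaur, Ets2 and Il1rn were lower there with ADT in the Trp53-deleted pair, and Clec4n held at most 8.56 CPM. Klf4 stood at 746 CPM in Trp53-deleted ADT against 121 CPM in Trp53-deleted, and at 448 CPM in Trp53-intact ADT against 184 CPM in Trp53-intact. Clec4n, the lectin dectin-2, stood at 209 CPM in Trp53-deleted ADT against 100 CPM in Trp53-deleted, and at 267 CPM in Trp53-intact ADT against 106 CPM in Trp53-intact. Igfbp3, at 37.1 and 34.4 CPM with ADT against 1.28 and 6.37 CPM without, and Rgcc, at 39.5 and 45.5 CPM with ADT against 8.34 and 6.56 CPM without (Trp53-deleted before Trp53-intact each time), also belonged to the 29, but their level in the T and B cells exceeded that in members in every library; how much of them is RNA of other cells was not tested.

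Mgl2, Txnip, Serping1, Gpx3, Hspa1a and Hspa1b were among the 20 lower in both. Txnip stood at 149 CPM in Trp53-deleted ADT against 429 CPM in Trp53-deleted, and at 128 CPM in Trp53-intact ADT against 381 CPM in Trp53-intact. The immunoglobulin genes Igkc, Jchain and Igha were in the same group, and Igkc stood at 33200 to 219000 CPM in the T and B cells.

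**Figure D4:**
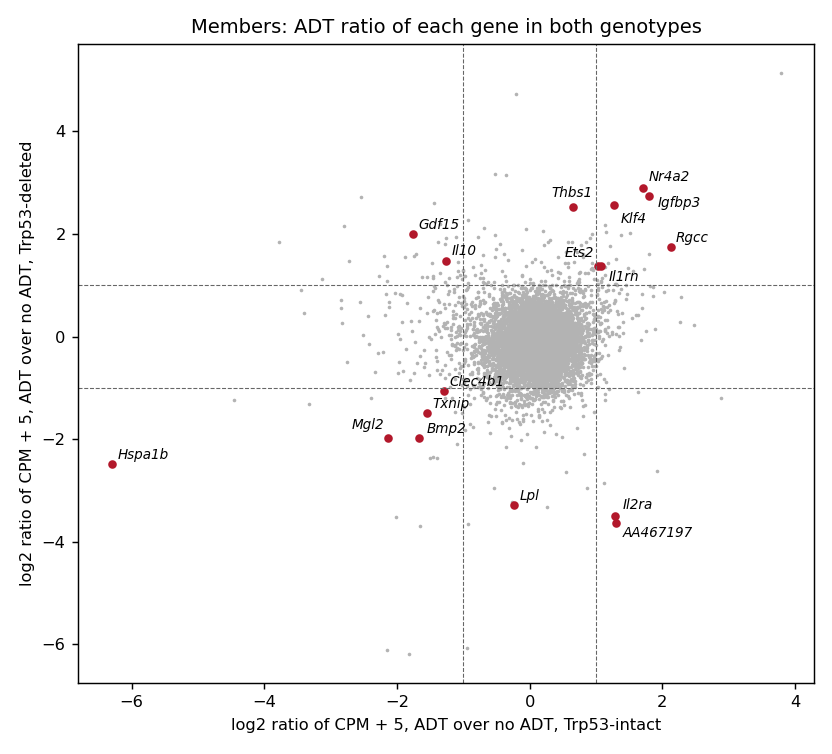
Each point is a gene tested in both ADT comparisons, with its log2 ratio of CPM + 5, ADT over no ADT, in Trp53-intact members (horizontal) and in Trp53-deleted members (vertical); dashed lines mark 2-fold. The cloud has no tilt (Pearson r 0.0434); Nr4a2 and Klf4 lie high on both axes, Hspa1b and Mgl2 low on both, and AA467197 and Il2ra low in the Trp53-deleted pair only.

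Some genes had opposite signs in the pairs. Ccl8 stood at 528 CPM in Trp53-deleted ADT against 191 in Trp53-deleted, and at 202 CPM in Trp53-intact ADT against 481 in Trp53-intact. Il10, an anti-inflammatory cytokine, stood at 39.3 CPM in Trp53-deleted ADT against 10.9 in Trp53-deleted, and at 20.6 CPM in Trp53-intact ADT against 56.1 in Trp53-intact. For the transcription factor Klf2 the levels were 585 CPM in Trp53-deleted ADT against 117 in Trp53-deleted, and 293 CPM in Trp53-intact ADT against 563 in Trp53-intact. Tsc22d3 followed the same signs, with log2 ratios of 1.95 in the Trp53-deleted pair and -0.78 in the Trp53-intact pair. The difference between the pairs was not tested.

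Between genotypes under ADT, the comparison rested on 1445 Trp53-deleted and 138 Trp53-intact members of the same age. Trp53-deleted members had more mRNA of resident-type and Ms4a6 genes and less of cytokine, lipid and glycolysis genes. Of 10396 genes tested, 204 (1.96%) were at least 2-fold higher and 188 (1.81%) lower, together 3.77%.

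Resident-type genes were at least 1.5-fold higher in 8 of 10 and lower in 0, beside 7.23% and 5.88% of all genes, with a median of 1.21, although both groups were gated to be low in Folr2, Cd163, Cd209f and Clec10a. Mrc1 stood at 524 CPM in Trp53-deleted ADT against 215 CPM in Trp53-intact ADT, with a UMI in 1209 of 1445 members, Pf4, platelet factor 4, at 413 CPM in Trp53-deleted ADT against 155 CPM in Trp53-intact ADT, and Cbr2 at 67.8 CPM in Trp53-deleted ADT against 22 CPM in Trp53-intact ADT. Retnla had the largest ratio, at 67.3 CPM in Trp53-deleted ADT against 3.83 CPM in Trp53-intact ADT, but 81.7% of its UMIs came from 3 cells. Ms4a6b stood at 705 CPM in Trp53-deleted ADT against 276 CPM in Trp53-intact ADT, a log2 ratio of 1.34 (interval 1.23 to 1.47), and was seen in 1401 of 1445 members. Ly6c2 stood at 161 CPM in Trp53-deleted ADT against 46.9 CPM in Trp53-intact ADT (1.68); the T and B cells, which make it too, held 267 CPM in Trp53-deleted ADT and 77.1 CPM in Trp53-intact ADT.

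Cytokines and mediators were at least 1.5-fold lower in 12 of 24 and higher in 1, with a median of -0.62. Il1b stood at 1840 CPM in Trp53-deleted ADT against 4200 CPM in Trp53-intact ADT, Il1a at 22.2 CPM in Trp53-deleted ADT against 159 CPM in Trp53-intact ADT and Vegfa, the endothelial growth factor, at 53.5 CPM in Trp53-deleted ADT against 158 CPM in Trp53-intact ADT. Chemokines were lower in 10 of 20 and higher in 2, with Ccl4 at 772 CPM in Trp53-deleted ADT against 2020 CPM in Trp53-intact ADT and Ccl3 at 335 CPM in Trp53-deleted ADT against 718 CPM in Trp53-intact ADT on the lower side. Ccl8, at 528 CPM in Trp53-deleted ADT against 202 CPM in Trp53-intact ADT with a log2 ratio of 1.37, was on the higher side. Its ratio was 0.82 without members that held UMIs of other cell types, 0.56 in members with both gate genes and 2.93 without the 3 richest cells per library, which held 72% of the Trp53-intact ADT UMIs.

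Lipid-associated genes were lower in 14 of 21 and higher in 1, with a median of -0.80: Lgals3, galectin 3, stood at 488 CPM in Trp53-deleted ADT against 1530 CPM in Trp53-intact ADT and Fabp5 at 95.8 CPM in Trp53-deleted ADT against 201 CPM in Trp53-intact ADT. Acp5, the tartrate-resistant phosphatase of the osteoclast list, stood at 67.6 CPM in Trp53-deleted ADT against 337 CPM in Trp53-intact ADT. Glycolysis and hypoxia genes were lower in 13 of 25 and higher in 1, with a median of -0.61: Hk2, hexokinase 2, stood at 70.4 CPM in Trp53-deleted ADT against 179 CPM in Trp53-intact ADT, Aldoa at 199 CPM in Trp53-deleted ADT against 576 CPM in Trp53-intact ADT and Hilpda, a hypoxia-induced lipid droplet protein, at 40.4 CPM in Trp53-deleted ADT against 143 CPM in Trp53-intact ADT. The T and B level subtracted left the direction of both lists as it was, with 16 of 21 and 20 of 25 lower. AA467197 was lowest of all, at 13.1 CPM in Trp53-deleted ADT against 369 CPM in Trp53-intact ADT, with a UMI in 55 of 138 Trp53-intact ADT members; Mmp12 stood at 3.8 CPM in Trp53-deleted ADT against 74.2 CPM in Trp53-intact ADT and Ccl22 at 1.54 CPM in Trp53-deleted ADT against 59.3 CPM in Trp53-intact ADT, the Ccl22 value of Trp53-intact ADT coming from 2 cells.

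Without ADT the comparison rested on 154 Trp53-deleted and 447 Trp53-intact members, aged 3.5 and 4 months. Trp53-deleted members had more mRNA of complement and monocyte genes and less of heat-shock, immediate-early and chemokine genes. Of 8482 genes tested, 271 (3.2%) were at least 2-fold higher and 278 (3.28%) lower, together 6.47%. The median over all genes was 0.21, and TMM scaling, which brought it to -0.01, gave 101 higher and 383 lower, so counts on the higher side are read against that shift.

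The dissociation list was at least 1.5-fold lower in 20 of 28 and higher in 0, beside 6.81% and 19.2% of all genes, with a median of -0.84. Hspa1b stood at 356 CPM in Trp53-deleted against 1560 CPM in Trp53-intact, Hspa1a at 298 CPM in Trp53-deleted against 1700 CPM in Trp53-intact, Jun at 432 CPM in Trp53-deleted against 1560 CPM in Trp53-intact and Fos at 777 CPM in Trp53-deleted against 1560 CPM in Trp53-intact. The T and B cells of Trp53-deleted also held less Hspa1b (190 against 700 CPM), Hspa1a (110 against 627 CPM) and Klf2 (203 against 341 CPM). They held more Ier3 (123 against 45.2 CPM) and Fosb (265 against 129 CPM). The heat-shock gap was thus not particular to members, and digestion cannot be told apart from genotype here. Chemokines were lower in 12 of 20 and higher in 2, with a median of -0.68: Cxcl1 stood at 6.42 CPM in Trp53-deleted against 347 CPM in Trp53-intact, Ccl4 at 1010 CPM in Trp53-deleted against 2480 CPM in Trp53-intact and Cxcl2 at 892 CPM in Trp53-deleted against 1840 CPM in Trp53-intact. Il10 stood at 10.9 CPM in Trp53-deleted against 56.1 CPM in Trp53-intact, and Gdf15 at 1.93 CPM, which is 3 UMIs, against 117 CPM.

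On the higher side, Ccr2, the receptor that draws monocytes out of bone marrow, stood at 1060 CPM in Trp53-deleted against 287 CPM in Trp53-intact, a log2 ratio of 1.87 (interval 1.79 to 1.99), with a UMI in 115 of 154 members. Of 13 classical monocyte genes, 8 were at least 1.5-fold higher and 1 lower, with a median of 0.72; Ly6c2 stood at 130 CPM in Trp53-deleted against 36.6 CPM in Trp53-intact and Plac8 at 246 CPM in Trp53-deleted against 115 CPM in Trp53-intact. With the T and B level subtracted, 2 of 13 were higher, but the T and B cells carried more Ly6c2 than the members, which sets it to 0 on both sides. Lpl stood at 351 CPM in Trp53-deleted against 77.8 CPM in Trp53-intact, Itgax at 194 CPM in Trp53-deleted against 80.7 CPM in Trp53-intact and Sirpb1c at 148 CPM in Trp53-deleted against 37 CPM in Trp53-intact. Ear2 and Ctse, at 101 CPM in Trp53-deleted against 16.9 CPM in Trp53-intact and 62.2 CPM in Trp53-deleted against 8.92 CPM in Trp53-intact, were also among the 8 highest, and Ctse came to a log2 ratio of 0.67 with the T and B level subtracted.

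Complement genes were higher in 7 of 11 and lower in 0, with a median of 0.75 and 5 of 11 under TMM scaling: C3 stood at 406 CPM in Trp53-deleted against 111 CPM in Trp53-intact and Serping1 at 136 CPM in Trp53-deleted against 38.2 CPM in Trp53-intact. Interferon genes were higher in 20 of 47 and lower in 2, a count that came down to 7 and 2 under TMM scaling, with Ifi213 at 52 CPM in Trp53-deleted against 14 CPM in Trp53-intact and Irf7 at 227 CPM in Trp53-deleted against 111 CPM in Trp53-intact. MHC class I genes were higher in 7 of 16, and in 4 of 16 under TMM scaling, with Tap1, the peptide transporter, at 161 CPM in Trp53-deleted against 52.8 CPM in Trp53-intact. Class II genes were higher in 3 of 10, a share near that of all genes, and in 2 of 10 under TMM scaling, with Cd74 at 23300 CPM in Trp53-deleted against 15300 CPM in Trp53-intact. The B and plasma markers, whose part here was not tested, summed to 7609 CPM in Trp53-deleted and to 695.2 CPM in Trp53-intact members. Checkpoint genes were higher in 9 of 18 and lower in 1, and under TMM scaling in 3 and 1.

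**Figure D5:**
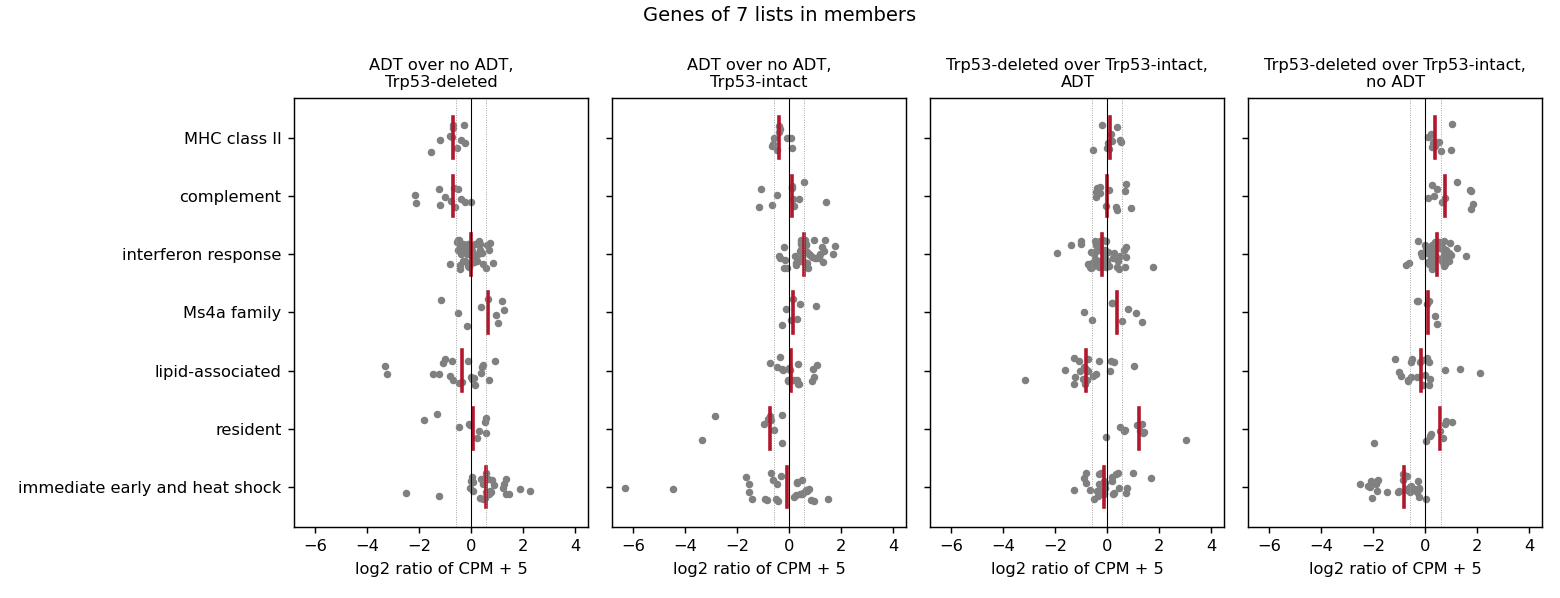
Each point is a gene of 1 of 7 lists, with its log2 ratio of CPM + 5 in members in each of the 4 comparisons; red bars are list medians and dotted lines mark 1.5-fold. The resident-type list has medians of -0.73 for ADT in the Trp53-intact pair and 1.21 for genotype under ADT, and the dissociation list -0.84 for genotype without ADT.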

How the data were processed

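The authors deposited 1 matrix of raw counts, UMIs per gene and cell, for 30905 genes, with a table that assigns barcodes to the 4 libraries by their suffix. Per the submitters' processing notes, reads were processed with Cell Ranger 2.1.1 against mm10, whereas the matrix header names software version 3.1.0; which version made the counts is not settled. The rest of the genotype, shared by all groups, is not reported here.

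From these counts, kept cells were gated as described, in raw UMIs. Members' UMIs were summed per library and scaled to CPM. Log2 ratios use CPM + 5 for genes with at least 50 UMIs over both libraries compared; their intervals are exact and leave out the 5 CPM. Intervals for CPM are exact Poisson and those for shares exact Clopper-Pearson, all 95%. The functions were checked on simulated data. Subset comparisons were made within each library and called only where all 4 had the same direction. The T and B cells, which do not make most macrophage genes, served as a rough measure of RNA from other cells. Their level also holds what they make themselves and further cells' RNA. The fibroblast markers summed to 7368 CPM in the T and B cells of Trp53-deleted ADT and to 402.4 to 1171 CPM in those of the other libraries. Values with this level subtracted therefore do not measure background alone.

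Members, the 39 gene lists (561 genes) and the rules were chosen with earlier results of these data known. Named genes needed at least 100 UMIs, at least 2-fold difference and, in the higher library, 2 times the level of kept cells outside the C1q gate; the 12 highest and 12 lowest by a pseudocount of 10 CPM were taken for each ADT comparison, 8 each way for genotype, 10 each way for the macrophage comparisons, and up to 4 each way per list. Ribosomal, mitochondrial, haemoglobin, model and gate genes were left out. Doublets were scored with Scrublet: its automatic threshold marked 0 or 1 cells per library and so did not work, members were kept, and the cells with the highest scores were left out in one alternative.

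Tools were Python 3.11.15 with numpy 2.4.6, scipy 1.17.1, pandas 2.3.3 and scanpy 1.11.5, and edgeR 4.0.16, used for TMM factors only. Promoter sequences are RefSeq's (GRCm38.p6; 4 of 4 genes matched) and positions GENCODE M21's. Monocyte-gated cells were left out as a comparison because epithelial and fibroblast genes were high among them.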

Additional observations from a re-analysis of the deposited data

Results flagged for a closer look

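The share of members had opposite signs between the genotypes: ADT minus no ADT was 12.31 points in Trp53-deleted and -3.74 points in Trp53-intact. With 1 library per group the difference between the pairs was not tested, here or for the genes that follow.

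Ccl8, a chemokine of resident macrophages, had a log2 ratio with ADT of 1.45 in Trp53-deleted and -1.23 in Trp53-intact. The Trp53-intact value was -0.31 without members that held UMIs of other cell types and -0.85 in members with both gate genes. In Trp53-intact ADT it was seen in 38 of 138 members, with 72% of the UMIs in 3 cells, and without the 3 richest cells per library the value was -2.61. For Il10 the log2 ratios were 1.48 in Trp53-deleted and -1.26 in Trp53-intact. Gdf15, a stress-induced growth factor, gave 2.0 in Trp53-deleted, where the group without ADT held 3 UMIs, and -1.75 in Trp53-intact.

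AA467197 gave -3.64 in Trp53-deleted and 1.30 in Trp53-intact, with 51.2% of the UMIs of the Trp53-deleted members in 3 cells. Il2ra gave -3.51 in Trp53-deleted and 1.29 in Trp53-intact, with 25 of 154 Trp53-deleted members holding a UMI. Dnase1l3 gave -2.61 in Trp53-deleted and 1.91 in Trp53-intact, and the Trp53-intact value was 0.48 without the 3 richest cells per library.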

How the results depend on the processing

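No paired analysis was possible because each group has 1 library, and leaving out a replicate was not possible for the same reason. The signs of the 4 share differences held in all 8 alternatives, which did not include leaving out members with UMIs of other cell types. With those members left out, Trp53-deleted ADT was no longer the highest library per kept cell. Beside 12.31 and -3.74 points for ADT in Trp53-deleted and Trp53-intact, and 13.23 and -2.82 points for genotype with and without ADT, they were, in that order, 7.30, -1.54, 8.09 and -0.75 with cells thinned to 2000 UMIs, 13.38, -4.46, 14.22 and -3.62 with at most 10% mitochondrial UMIs, and 22.55, -5.42, 23.29 and -4.69 as shares of the C1q gate. With a gate of at least 5 UMIs, the first 3 were 10.76, -3.05 and 11.37. With a gate of at least 2, the Trp53-deleted ADT library stood 13.26 points above Trp53-deleted and 14.35 above Trp53-intact ADT, and with at least 1000 UMIs per cell 14.04 and 14.87, beside -3.49 for genotype without ADT.

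Counts of 2-fold genes depended on the settings more. For ADT in Trp53-deleted (main 243 higher, 328 lower), they were 567 and 699 with a pseudocount of 1 CPM, 136 and 190 with 10 CPM, 420 and 1528 with the T and B level subtracted, 149 higher without members that held UMIs of other cell types, and 208 lower among genes with at least 200 UMIs. For ADT in Trp53-intact (140 and 237), they were 217 and 364 with 1 CPM, 134 lower with 10 CPM, 269 and 1940 with the T and B level subtracted, 124 lower without members with other cells' UMIs, 89 and 95 at 200 UMIs, 59 and 46 after thinning, and 144 lower in members with both gate genes. For genotype with ADT (204 and 188), they were 593 and 302 with 1 CPM, 102 higher with 10 CPM, 487 and 1010 with the T and B level subtracted, 99 higher without members with other cells' UMIs, and 403 higher after thinning. For genotype without ADT (271 and 278), they were 508 higher with 1 CPM, 138 higher with 10 CPM, 1519 lower with the T and B level subtracted, 159 lower without members with other cells' UMIs, 116 and 146 at 200 UMIs, 70 and 65 after thinning, 101 higher with TMM scaling, and 182 lower in members with both gate genes. Fewer genes were tested after thinning, at 200 UMIs, without members with other cells' UMIs and in members with both gate genes; the causes were not tested.

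Of 815 values of named genes in other settings, 601 stayed within the interval of the reported value, 212 moved and 1 turned, AY036118 for ADT in Trp53-deleted (-0.39) with the T and B level subtracted. The same subtraction gave 0.00 for Ly6c2 in genotype with ADT, a value fixed by the T and B level (267 and 77.1 CPM), which exceeds that of members in both libraries. Ccl8 and Gdf3 for ADT in Trp53-intact were -0.85 and -0.66 in members with both gate genes, where chemokines numbered 1 higher and 7 lower (main 6 and 3) and cytokines 5 and 8 (main 9 and 4). Without the 3 richest cells per gene and library, 26 of 80 named values moved by over 1.5 times and 5 came below 2-fold. Among them Pla2g2d turned to -0.63 for ADT in Trp53-intact and Ccl22 to 0.10 for genotype with ADT, and Ccl22 also turned to -1.05 for ADT in Trp53-intact. The settings with both gate genes and without 3 cells were chosen after seeing the data. Depth limits the Trp53-deleted and Trp53-intact ADT members most, where a gene at 5 CPM rests on few molecules.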
